A study of Mus musculus with 6 samples.

Results

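The genes described here encode 9 enzymes of glycolysis: Hk2, Gpi1, Aldoa, Tpi1, Gapdh, Pgk1, Pgam1, Eno1 and Ldha. They were taken from the deposited expression table by name, 9 of its 12826 genes, and all 9 were present and passed the filter on low values that left 10914 genes for testing. RNA came from 3 individual ETX-embryos (A, B and C), structures resembling an embryo that form when stem cells of 3 kinds (embryonic, trophoblast and extraembryonic endoderm) are cultured together. Each was grown in sequential IVC media with no treatment, and was made with a line whose T/Brachyury-GFP reporter marks cells expressing T, a gene of the primitive streak. The trophoblast stem cell compartment was removed and the embryonic compartment was cut lengthwise. The GFP-positive piece of each embryo is labelled posterior and the GFP-negative piece anterior, which gives 3 libraries labelled anterior and 3 labelled posterior, 1 of each per embryo. Both groups share the reporter line, the culture and the Smart-seq2 preparation and no embryos grown in a uterus were analysed here. The labels call A, B and C individuals but do not say whether they come from separate cultures, and p-values measure the spread between these pieces.

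Glycolysis splits glucose into pyruvate in the cytosol and yields ATP without oxygen. Lactate dehydrogenase then turns pyruvate into lactate and returns the NAD+ that the pathway consumes. Many of its enzyme genes are known targets of hypoxia-inducible factors and of MYC, and pluripotent cells of the early mouse embryo are known for active glycolysis. Gapdh and Pgk1 are also widely used as reference genes, on the premise that they vary little.

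The libraries differed in ways that touch the comparisons below. The number of genes above 0 ran from 9335 to 11082 in the libraries labelled anterior and from 10260 to 12141 in those labelled posterior. Depth relative to anterior A, read from the steps of low FPKM values, was 1.40 to 1.42 in the other libraries labelled anterior and 1.56 to 2.82 in those labelled posterior. The step used matched 6.68% to 13.93% of the low genes. It gives depth only if no other factor scaled the libraries, and no source used here states the normalization. Absolute depth is unknown. By definition, FPKM values are fragment counts scaled to transcript length and to the number of mapped fragments. The median difference over all 10914 genes, posterior minus anterior in log2(FPKM + 1), was 0.43. T itself, in log2(FPKM + 1), went with the labels in embryos A and B, where it was listed at 0 in the anterior piece and at 2.59 (A) and 4.05 (B) in the posterior one. In embryo C it went against them, at 5.44 in the anterior piece as labelled and 0 in the posterior. The other 8 tested streak markers followed the labels in all 3 embryos. In embryo C, as labelled, Wnt3 was at 0.92 in the anterior and 6.15 in the posterior piece, Mixl1 at 0 and 4.97, and Fgf8 at 0 and 5.88. Fitted differences of enzymes that changed sign without embryo C are also given without it. Many other results are given with embryo C only. The summed level of 10 epiblast markers, whose most abundant genes were Nanog, Dnmt3b and Otx2, was 21.9, 74.7 and 304 FPKM in the anterior libraries of embryos A, B and C, as labelled, and 405, 236 and 391 FPKM in the posterior ones. Pou5f1, a defining epiblast gene, was above 0 in every library but as low as 0.94 in anterior B in log2(FPKM + 1).

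Promoter windows of the enzyme genes held different numbers of the letters bound by oxygen-responsive and MYC family factors, and 4 of them are printed here. Hypoxia-inducible factors bind DNA at ACGTG or GCGTG, and MYC family proteins at CACGTG. These motifs were searched on both strands in RefSeq windows of 300 bases (GRCm38.p6), 250 before to 50 after each annotated start. CACGTG holds ACGTG on each strand, so their counts overlap. All 9 enzyme genes had at least 1 window, 14 in all, and 7 of the 9 held ACGTG or GCGTG in some window. That is a description beside 46.7% of 27025 genes and 43.8% of 32851 windows with either motif. Both motifs hold CG, and the 14 windows were 52.7% to 69.0% GC, where the median of all windows was 52.7%. A gene with more windows also has more places for a match. The part of GC content and of window number in the count was not tested. ACGTG was in 19.6%, GCGTG in 32.4% and CACGTG in 7.2% of all windows. The 7 were Hk2, Aldoa, Gapdh, Pgk1, Pgam1, Eno1 and Ldha, and the windows of Gpi1 and Tpi1 held neither. The 250 bases before the start are printed 5′ to 3′ on the gene's strand, with every ACGTG and GCGTG in capitals on either strand (CACGT and CACGC are the same letters read from the other strand). Ldha (chr7:46845554-46845803, plus strand) is shown because it held the most matches, 5 of ACGTG including both strands of 2 CACGTG, with 2 of GCGTG lying after the start. Pgk1 (chrX:106186850-106187099, plus strand) is shown as the enzyme gene with the widest spread over libraries, and held 2 of ACGTG. Hk2 (chr6:82774455-82774704, minus strand) is shown as the gene with the largest gap within embryo C, and held 2 of ACGTG. Tpi1 (chr6:124814159-124814408, minus strand) is shown as the gene with the largest fitted difference over 3 embryos, and held none.
Ldha: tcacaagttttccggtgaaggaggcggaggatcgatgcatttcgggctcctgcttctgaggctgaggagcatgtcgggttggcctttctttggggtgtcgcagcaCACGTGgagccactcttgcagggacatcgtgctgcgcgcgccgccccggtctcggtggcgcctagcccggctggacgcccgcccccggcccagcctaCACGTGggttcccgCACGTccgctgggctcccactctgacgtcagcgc
Pgk1: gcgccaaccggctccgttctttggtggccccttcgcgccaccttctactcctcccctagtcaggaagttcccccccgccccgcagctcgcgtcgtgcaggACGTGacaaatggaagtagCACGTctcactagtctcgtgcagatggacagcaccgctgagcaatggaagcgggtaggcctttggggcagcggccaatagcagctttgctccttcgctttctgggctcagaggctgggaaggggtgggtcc
Hk2: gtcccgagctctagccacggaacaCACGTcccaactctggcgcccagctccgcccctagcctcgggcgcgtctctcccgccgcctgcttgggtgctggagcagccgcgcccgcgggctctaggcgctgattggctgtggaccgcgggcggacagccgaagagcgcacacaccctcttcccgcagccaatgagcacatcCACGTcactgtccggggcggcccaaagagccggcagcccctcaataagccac
Tpi1: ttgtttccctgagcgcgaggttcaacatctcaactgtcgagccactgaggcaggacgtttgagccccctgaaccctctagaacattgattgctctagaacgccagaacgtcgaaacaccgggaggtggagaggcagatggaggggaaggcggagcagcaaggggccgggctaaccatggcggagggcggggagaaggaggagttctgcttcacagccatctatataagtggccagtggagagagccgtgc

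Levels of the enzymes ranked near the top of every library. The most abundant of the 9 held rank 31 to 48 among all genes of a library, and the least abundant held rank 683 to 2159. Their summed level was 2855, 5224 and 6202 FPKM in the libraries labelled anterior (here and below in the order A, B, C) and 4367, 3100 and 5082 FPKM in those labelled posterior. This was 0.757%, 0.987% and 1.18% of all FPKM in the libraries labelled anterior, against 0.723%, 0.589% and 0.836% in those labelled posterior. The share was lower in the posterior piece of each embryo. By this sum the library labelled anterior C was highest and anterior A lowest in level, while posterior B was lowest in share.

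The upper, energy-investing steps begin with Hk2, the hexokinase that traps glucose as glucose-6-phosphate. Its gene lies at chr6:82725025-82774454 on the minus strand (GRCm38, GENCODE M21, as for all genes below). Hk2 was at 45.8, 79.4 and 279 FPKM in the libraries labelled anterior and at 81.9, 123 and 75.7 FPKM in those labelled posterior. The library labelled anterior C stood above the other 5, and the groups overlapped. The fitted difference, posterior minus anterior in log2(FPKM + 1) with limma, was -0.14 ± 0.75 (SE, n = 3 embryos; 95% interval -1.83 to 1.55; adjusted p 0.972). Without embryo C it was 0.72. Gpi1 (chr7:34201330-34230336, minus strand), the isomerase that makes fructose-6-phosphate, was at 81.8, 116 and 145 FPKM against 120, 41.1 and 169 FPKM. Posterior B was the lowest library and the one labelled posterior C the highest, so the posterior libraries spanned the anterior ones. Its difference was -0.23 ± 0.70 (95% interval -1.80 to 1.33; limma adjusted p 0.941), and 0.38 without embryo B and -0.46 without embryo C.

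Aldoa (chr7:126795234-126800751, minus strand), the aldolase that splits the 6-carbon sugar, was at 646, 921 and 1429 FPKM in the libraries labelled anterior and at 1132, 530 and 1034 FPKM in those labelled posterior. The lowest value was in posterior B and the highest in the library labelled anterior C. Its difference was -0.15 ± 0.57 (95% interval -1.44 to 1.13; limma adjusted p 0.956), and turned to 0.17 without embryo B and 0.01 without embryo C. Tpi1 (chr6:124810586-124814296, minus strand), which interconverts the triose phosphates so that both can go on, was at 257, 415 and 582 FPKM against 230, 327 and 183 FPKM. The posterior piece was lower in each embryo, with log2 differences of -0.16, -0.34 and -1.66, but the groups overlapped. Its fitted difference, the largest of the 9 enzymes, was -0.72 ± 0.61 (95% interval -2.09 to 0.64; p 0.264 and adjusted p 0.743 with limma). Without embryo C it was -0.25, smaller in size than those of Hk2 (0.72) and Gapdh (-0.63), and without embryo A that of Gapdh, -1.01, was as large. Exons of Tpi1 overlap Spsb2 on the other strand, which reached at most 19.3 FPKM, in the library labelled anterior C. Exons of Aldoa likewise overlap Fam57b, which reached at most 1.76 FPKM. No source says that counting used strand, so reads of overlapping genes cannot be told apart.

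The lower, energy-yielding steps begin with Gapdh (chr6:125161715-125166467, minus strand), which oxidises glyceraldehyde-3-phosphate and makes NADH. Gapdh was at 395, 674 and 842 FPKM in the libraries labelled anterior and at 609, 182 and 766 FPKM in those labelled posterior. Posterior B stood lowest, and the other 5 libraries of Gapdh interleaved. The difference was -0.47 ± 0.64 (95% interval -1.91 to 0.98; limma adjusted p 0.851), and 0.24 without embryo B. Gapdh has many near-identical copies in the genome: 70 other genes match its coding sequence at 95% identity or more over at least 80% of its length, 67 of them pseudogenes. One of them, Gm12070, was listed at 70.6 to 306 FPKM, 16.3% to 28.0% of the sum of both, and no source used here says how reads were split between them. With Gm12070 added, the Gapdh difference was -0.42 ± 1.34 (SD over 3 embryos). Gapdh also shares exon positions with Iffo1 on the other strand, which reached at most 31.9 FPKM, in the library labelled anterior C.

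Pgk1 (chrX:106187100-106203699, plus strand), the kinase of the first ATP-yielding step, was at 140, 716 and 854 FPKM in the libraries labelled anterior and at 283, 410 and 683 FPKM in those labelled posterior. Anterior A stood lowest, posterior A next, and both libraries of embryo C were high. Its difference between domains was -0.04 ± 0.61 (95% interval -1.40 to 1.32; limma adjusted p 0.992), and turned to 0.34 without embryo B and 0.10 without embryo C. Pgam1 (chr19:41911923-41918660, plus strand), a mutase that moves the phosphate group, was at 260, 575 and 518 FPKM against 241, 404 and 461 FPKM. Like Tpi1 it was lower in the posterior piece of each embryo, here with log2 differences of -0.11, -0.51 and -0.17, and with overlapping groups. The fitted difference of Pgam1 was -0.26 ± 0.56 (95% interval -1.52 to 1.00; limma adjusted p 0.911). Eno1 (chr4:150236721-150248879, plus strand), the enolase that makes phosphoenolpyruvate, was at 153, 181 and 273 FPKM against 259, 104 and 250 FPKM. Its lowest value was in posterior B, and the difference was -0.06 ± 0.63 (95% interval -1.47 to 1.35; limma adjusted p 0.986), or 0.31 without embryo B. Ldha (chr7:46841475-46855627, plus strand), which makes lactate from pyruvate, was at 876, 1547 and 1281 FPKM against 1411, 981 and 1461 FPKM. Ldha was lowest in anterior A and next lowest in posterior B. Its difference was the only one above 0 among the 9 enzymes, 0.07 ± 0.55 (95% interval -1.15 to 1.30; limma adjusted p 0.979), and it turned negative under each of 3 other scalings of the libraries and without embryo A. By the same measure as for Gapdh, Eno1 has 3 near-identical copies in the genome, Pgk1 and Ldha 2 each and Pgam1 1, none of them a gene of the table.

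**Figure D1:**
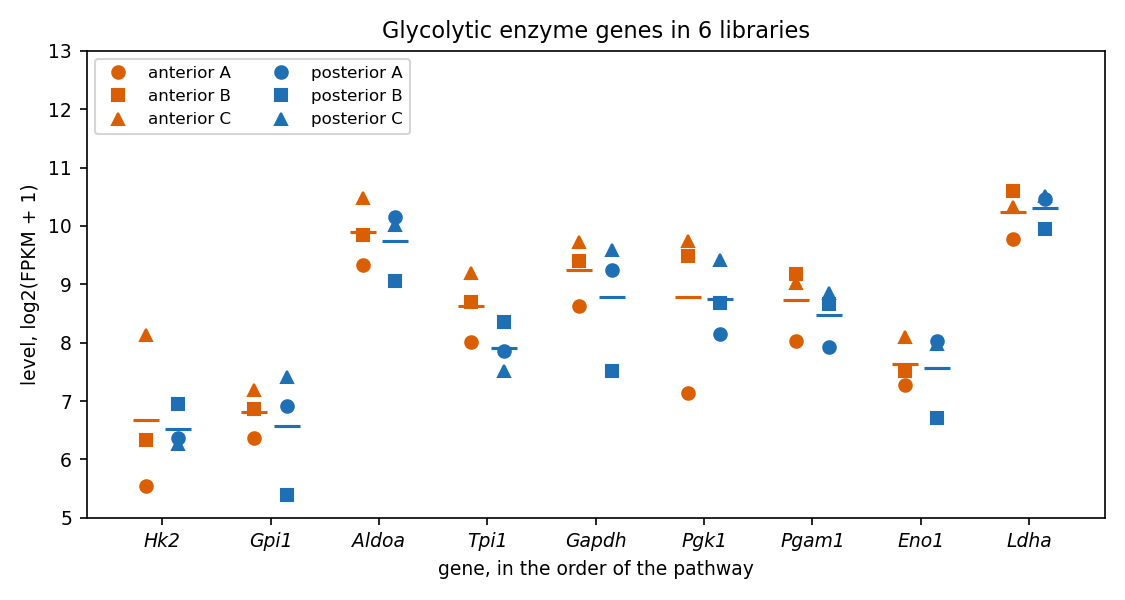
Each enzyme gene's level (vertical axis, log2(FPKM + 1)) in pathway order, with 1 point per library (orange, labelled anterior; blue, labelled posterior; circles for embryo A, squares for B, triangles for C) and bars at group means. The orange and blue points of every gene overlap, and posterior B is the lowest library for Gpi1, Aldoa, Gapdh and Eno1.

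Taken over the pathway, none of the 9 enzymes differed between domains past an adjusted p of 0.05 with limma, and none had an unadjusted p under 0.05. The same held for all genes at the adjusted threshold (0.0% of 10914 genes called, smallest adjusted p 0.211), while at an unadjusted p under 0.05 the posterior domain was higher for 7.24% and the anterior for 0.788% of genes. The intervals of the enzymes are wide: differences of more than 1 in log2 lie within the interval of each enzyme in at least 1 direction. On average 8 of the 9 were lower in the posterior domain (median difference -0.15), where 35.1% of all genes had a negative difference and the median was 0.43. Among 771 genes at least as abundant as the lowest enzyme, 30.5% were negative and the median was 0.35. That count of 8 depended on the embryos: it was 9 without embryo A, 3 without embryo B and 5 without embryo C. In 2 of the 9, Tpi1 and Pgam1, the anterior library was higher in 3 of 3 embryos, against 8.25% of all genes. In 0 of the 9 was the posterior library higher in 3 of 3, against 21.5% of all genes. No enzyme separated the groups without overlap, which 12.3% of genes did with the posterior and 3.77% with the anterior group higher.

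The direction of most enzymes differed between embryos. In embryo A, 7 of 9 were higher in the posterior piece, near the share of all genes (67.8%), with a median difference of 0.69 beside 0.91 for all genes. In embryo B, 8 of 9 were lower there, where 48.2% of all genes were, with a median of -0.80 beside 0.02. Only Hk2, at 0.62, went the other way in that embryo, and Gapdh had the largest gap, -1.88. In embryo C, 7 of 9 were lower in the library labelled posterior, where 40.9% of all genes were, with a median of -0.17 beside 0.17. The gaps there were largest for Hk2 (-1.87) and Tpi1 (-1.66), and the next was Aldoa at -0.47. In embryos A and B 8 of the enzymes, and in embryo C 7, lay below the median difference of all genes.

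**Figure D2:**
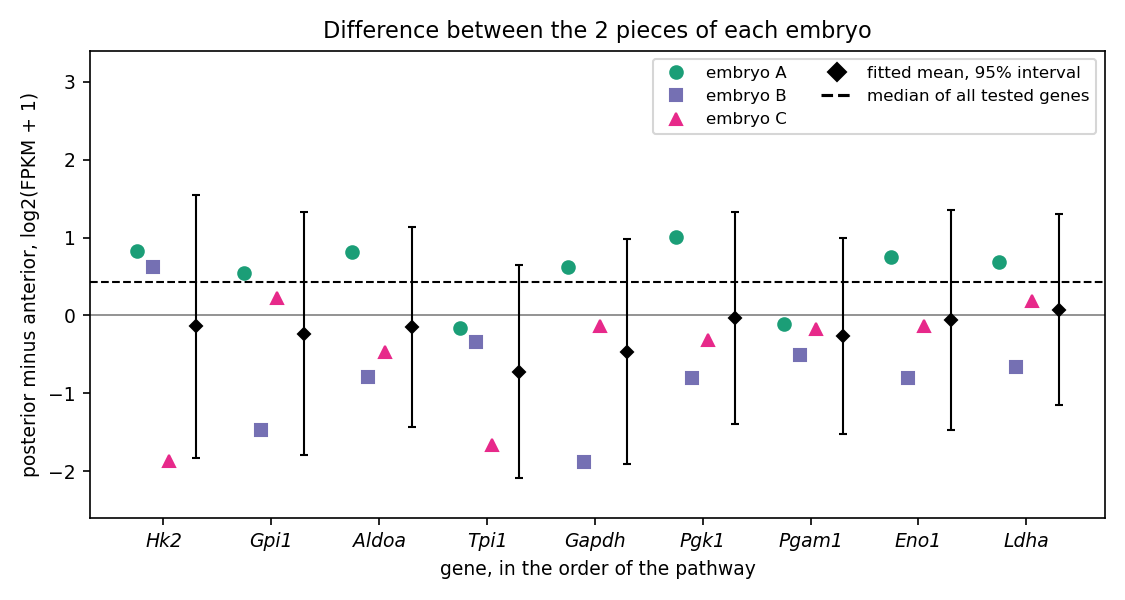
Posterior minus anterior difference of each enzyme gene in log2(FPKM + 1) per embryo (circles for A, squares for B, triangles for C), with the fitted mean and its 95% interval (diamond and bar) and the median of all tested genes (dashed line, 0.43). All 9 intervals span 0, and the points of embryo A lie above those of embryo B for each gene.

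A scale that takes each library's own median gene as its zero changed the count. On it all 9 enzymes were lower in the posterior domain, from -0.41 for Ldha to -1.21 ± 0.56 for Tpi1 (p 0.0517 and adjusted p 0.722 with limma), and Gapdh was at -0.95 ± 0.49 (p 0.0771). In 7 of 9, all but Hk2 and Pgk1, the posterior piece was lower in 3 of 3 embryos, where 17.1% of all genes were. None passed the adjusted threshold. The median of the 9 was -0.64, and that of all genes -0.06.

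Lactate dehydrogenase and aldolase lead the order of levels, and the first enzymes of the pathway close it. From the highest, mean levels over 6 libraries in log2(FPKM + 1) were 10.27 ± 0.33 for Ldha, 9.81 ± 0.53 for Aldoa, 9.02 ± 0.83 for Gapdh, 8.77 ± 0.99 for Pgk1 and 8.61 ± 0.52 for Pgam1 (SD). Below them came Tpi1 at 8.27 ± 0.61, Eno1 at 7.60 ± 0.54, Gpi1 at 6.69 ± 0.72 and Hk2 at 6.60 ± 0.87. FPKM is per length, so levels of different genes can be set side by side. Neighbours were compared within libraries by an exact two-sided sign-flip permutation test over 6 libraries, which cannot give a p below 0.03125. This test takes both pieces of an embryo as separate units. With the 3 embryos as units, no exact p could fall below 0.25. Aldoa stood above Gapdh in 6 of 6 libraries, by 0.80 ± 0.41 (SD), and Eno1 above Gpi1 in 6 of 6, by 0.91 ± 0.28, each with an exact p of 0.03125, or 0.125 adjusted over the 8 neighbour pairs. With its copy Gm12070 added, Gapdh had a mean of 9.42 ± 0.83 (SD), nearer to Aldoa. In anterior B that sum was at 9.83 beside 9.85 for Aldoa. Ldha stood above Aldoa in 5 of 6 libraries, by 0.46 ± 0.37 (exact p 0.0625, adjusted 0.167). Adjusted exact p-values of the other 5 pairs ran from 0.25 to 0.844. No pair passed the adjusted threshold, which with this smallest p and 8 pairs could be reached only if most pairs differed in every library, so the test does not settle the order. The differences of Ldha from Aldoa, of Aldoa from Gapdh and of Eno1 from Gpi1 exceeded their SD. Those of Gapdh from Pgk1 (0.25 ± 0.94), Pgk1 from Pgam1 (0.16 ± 0.57) and Pgam1 from Tpi1 (0.34 ± 0.53) did not. Nor did those of Tpi1 from Eno1 (0.68 ± 0.82) and Gpi1 from Hk2 (0.09 ± 1.08). Without embryo A, Pgk1 exchanged places with Gapdh and Hk2 with Gpi1, and without embryo C, Pgk1 exchanged places with Pgam1.

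Whole steps of the pathway were compared by summing the FPKM of all isozymes in the table. Lactate dehydrogenase had the highest mean, 1307 ± 275 FPKM (SD over 6 libraries), followed by aldolase at 973 ± 335. The GAPDH step had 578 ± 247, phosphoglycerate kinase 514 ± 279, the mutase 411 ± 135 and triose-phosphate isomerase 332 ± 147. Pyruvate kinase, whose only gene here is Pkm, had 308 ± 117 and enolase 213 ± 71.4. Hexokinase had 124 ± 79.1 and glucose-6-phosphate isomerase 112 ± 45.3. Phosphofructokinase, the committed step and a main point of control, had the lowest sum in 6 of 6 libraries: 55.5, 74.4 and 83.7 FPKM in the libraries labelled anterior and 52.5, 28.8 and 71.0 FPKM in those labelled posterior. Its makeup varied, with Pfkl holding 11.8% of the sum in anterior A and 85.3% in posterior A, and Pfkp holding 85.4% in anterior A.

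**Figure D3:**
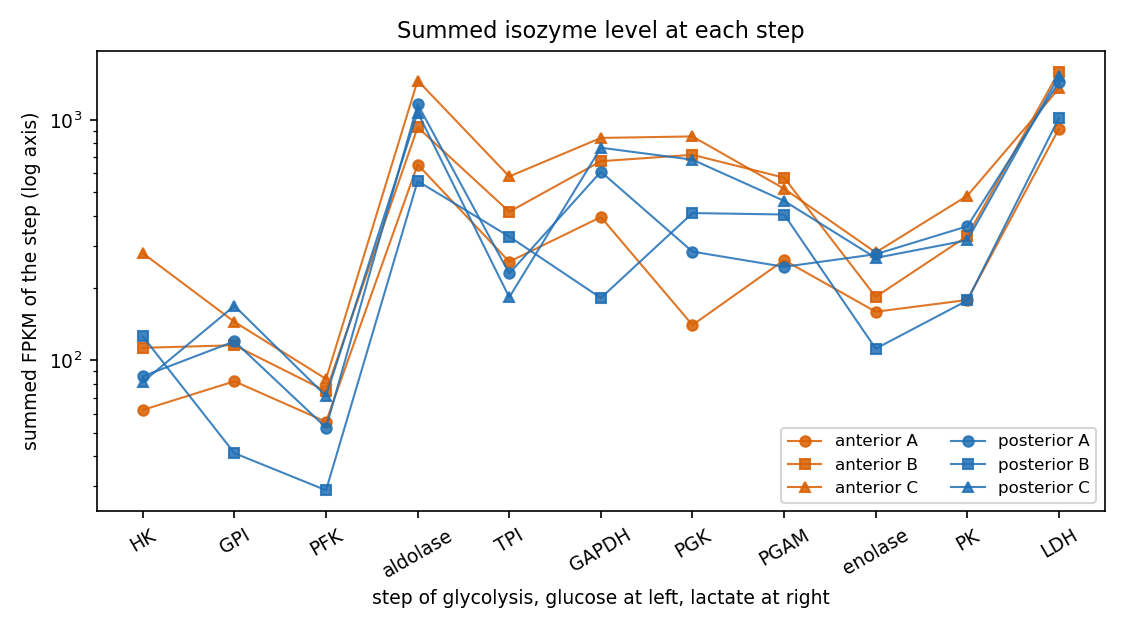
Summed isozyme level of each glycolytic step in FPKM on a log axis, from hexokinase to lactate dehydrogenase, with 1 line per library (orange, labelled anterior; blue, labelled posterior). In all 6 libraries the sum is lowest at phosphofructokinase and rises to aldolase, and the highest step is lactate dehydrogenase except in the library labelled anterior C, where it is aldolase.

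Each enzyme with other isozymes in the table held most of its step. Aldoa held 95.2% to 99.0% of the aldolase sum over the libraries, Eno1 92.7% to 98.6% of enolase, Pgam1 98.5% to 100% of the mutase (beside Pgam2) and Ldha 94.6% to 98.1% of lactate dehydrogenase (beside Ldhb and Ldhal6b). Hk2 held 73.7%, 70.5% and 99.9% of hexokinase in the libraries labelled anterior, and 95.5%, 97.8% and 93.2% in those labelled posterior. The remainder in anterior A and B was mainly Hkdc1, a hexokinase-like enzyme, at 3.42 and 4.73 in log2(FPKM + 1), with Hk1 at 2.93 and 1.36. In the library labelled anterior C, Hkdc1 was at 0.

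The balance of isozymes was tested as the log2 ratio of the enzyme to its isozymes. The ratio of Aldoa to Aldoc, the aldolase known from brain, was lower in the posterior piece of 3 of 3 embryos, by a mean of -1.41 ± 0.62 (SD). Eno1 against Eno2 and Eno3 was likewise lower in 3 of 3, by -1.35 ± 0.75. Both had an exact sign-flip permutation p of 0.25, the smallest that 3 pairs allow, and 0.417 adjusted over 5 such comparisons. Pgam1 against Pgam2 was also lower in 3 of 3, by -0.81 ± 0.59 with the same p. The other ratios were mixed: that of Hk2 differed by 2.66, 3.82 and -4.26 in embryos A, B and C (exact p 1) and that of Ldha by 1.33, -0.58 and 0.40 (exact p 0.75). Eno3, the muscle enolase, was at 1.40, 0 and 0.25 in the libraries labelled anterior and at 3.99, 3.13 and 4.07 in those labelled posterior in log2(FPKM + 1). These groups did not overlap, as for 12.3% of all genes in that direction. It was 1 of 14 other glycolytic enzymes and isozymes tested to separate so. The fitted difference of Eno3 was 3.18 ± 0.97 (p 0.00884, adjusted p 0.550 with limma). An unadjusted p under 0.05 in that direction was found for 7.24% of all genes. Aldoc was at 2.88, 3.52 and 4.94 against 4.95, 4.80 and 5.36, a difference of 1.26 ± 0.82. These minor isozymes are low, and libraries labelled posterior were the deeper ones as read from the steps of low values. The part of depth in their values was not tested.

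Other genes of the pathway were read from lists of known members. Of 14 other glycolytic enzymes and isozymes tested, 9 were lower and 5 higher in the posterior domain (median difference -0.46). Pfkp, the platelet-type phosphofructokinase, differed by -1.30 ± 0.93 and Eno2, the neuronal enolase, by -1.25 ± 0.95. Pkm was at 7.49, 8.37 and 8.92 in the libraries labelled anterior and at 8.50, 7.48 and 8.31 in those labelled posterior in log2(FPKM + 1), with a difference of -0.16 ± 0.63. All 5 tested genes listed for glucose and lactate transport had a negative difference, with a median of -0.30. Without embryo B, 3 of 5 did (median -0.08), and the median was -0.76 without embryo A and -0.49 without embryo C. Slc2a1 (GLUT1) was at 8.49, 8.66 and 9.02 against 8.69, 7.49 and 8.67, and Slc2a3 (GLUT3) at 8.09, 8.84 and 8.60 against 8.13, 8.33 and 8.36. The lactate exporter Slc16a3 differed by -0.93 ± 0.82 and the carrier Slc16a1 by -0.30 ± 0.64. Among 5 regulators of flux, Pfkfb3, which makes an activator of phosphofructokinase, differed by -3.71 ± 0.98 (p 0.00402, adjusted p 0.520 with limma). The other regulators ran from -0.76 ± 0.96 for Pdk1 to 1.56 ± 1.10 for Pdk3, both kinases that restrain pyruvate dehydrogenase, with Pfkfb1 at 0.45 ± 0.96. No gene of these lists passed the adjusted threshold.

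Hypoxia targets outside glycolysis, genes known to respond to low oxygen, mostly had negative differences too. Of 16 tested, 14 were lower in the posterior domain, with a median of -1.13, and 9 of the 16 were lower in 3 of 3 embryos, against 8.25% of all genes. Adm, a vasodilator peptide, differed by -3.91 ± 0.98 and Ankrd37 by -3.60 ± 1.15, Egln3, an oxygen-sensing hydroxylase, by -2.81 ± 0.96 and Vegfa, the vascular growth factor, by -2.43 ± 0.83. These 4 had an unadjusted p under 0.05 with limma, where 0.788% of all genes were so called in that direction, and none passed the adjusted threshold. The list was chosen with earlier results of these data known, so its counts beside all genes are a description and not a test. Embryo medians of the 16 were -1.42, -1.51 and -1.06 in A, B and C, where those of the 9 enzymes were 0.69, -0.80 and -0.17. Leaving out embryo A, B or C left 15, 13 and 14 of the 16 negative. Whether the enzymes and the hypoxia targets differ in response was not tested. Of 10 oxygen-sensing and transcription factor genes, 5 were higher and 5 lower in the posterior domain (median 0.09). Without embryo C, 4 were higher and 6 lower (median -0.19). Hif1an, an inhibitor of hypoxia-inducible factor, differed by 2.09 ± 1.11, Mycn by 1.03 ± 0.80 and Epas1, which encodes HIF-2alpha, by -1.11 ± 1.18. All 3 depended on embryo C. In embryos A, B and C, Hif1an differed by 0.78, 0.78 and 4.72 and Mycn by -0.59, 0.83 and 2.85. Epas1 differed by -2.27, -3.16 and 2.11.

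Genes that take pyruvate onward into the mitochondrion mostly had positive differences, as did most genes. Of 9 genes of pyruvate entry 7 were higher in the posterior domain (median 0.88), and of 18 genes of the citric acid cycle 16 were higher (median 0.68). Over all genes 7078 of 10914 were higher, with a median of 0.43. Pdhb, a subunit of pyruvate dehydrogenase, differed by 2.46 ± 0.95 and Mpc1, a subunit of the mitochondrial pyruvate carrier, by 2.53 ± 1.05. Mpc2 differed by 1.06 ± 0.90 and Dld, another subunit of the dehydrogenase, by 0.88 ± 0.81. Suclg2 and Suclg1, subunits of succinyl-CoA ligase, differed by 3.29 ± 1.07 and 1.90 ± 0.82. The difference of Suclg2 was 2.72, 1.03 and 6.14 in embryos A, B and C. Sdhb differed by 1.47 ± 0.70 and Idh3a by 2.31 ± 1.14. Pdhb, Mpc1, Suclg1 and Suclg2 had an unadjusted p under 0.05, where 7.24% of all genes did in that direction, and none passed the adjusted threshold. Without embryo A, 12 of the 18 cycle genes were higher (median 0.36) and 7 of the 9 (median 0.38), where 6057 of 10914 genes were and the median of all genes was 0.17. With each library centred on its median gene, 5 of 9 and 10 of 18 were higher, where 5233 of 10914 genes were. In the pentose phosphate pathway, the branch that makes NADPH and ribose, 5 of 6 genes were higher (median 0.51), and G6pdx, its entry enzyme, differed by 1.30 ± 1.04. Without embryo C, 4 of the 6 were higher (median 0.23).

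**Figure D4:**
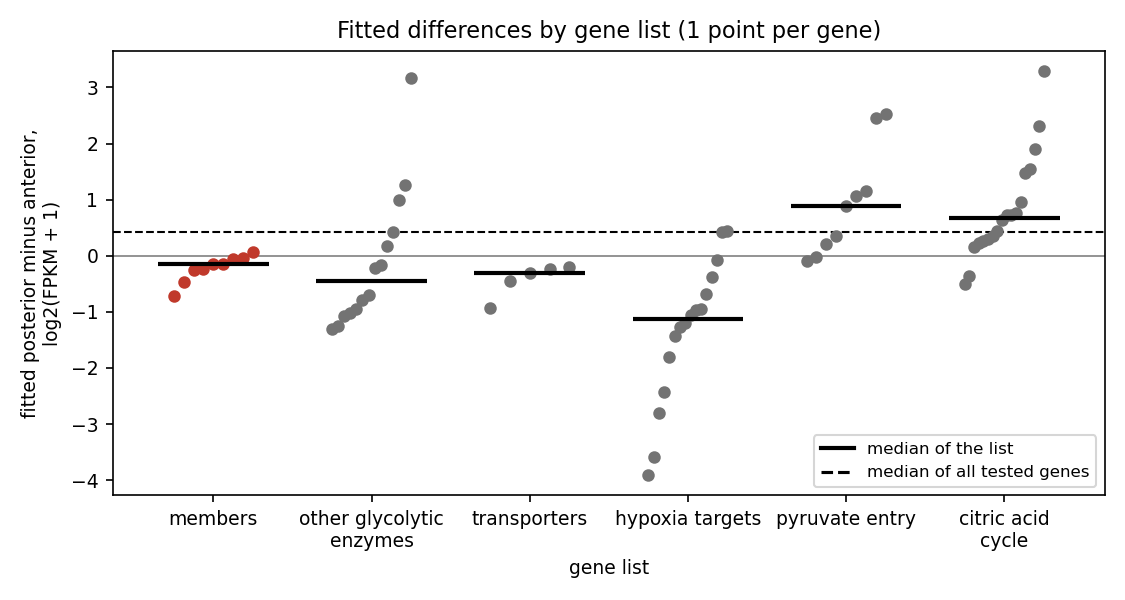
Fitted posterior minus anterior difference in log2(FPKM + 1), 1 point per tested gene, for the 9 enzymes (red) and 5 other lists (grey), with list medians as bars and the median of all tested genes as a dashed line. The 9 enzymes lie between -0.72 and 0.07, the hypoxia targets reach down to -3.91 and the citric acid cycle genes reach up to 3.29.

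Differences among the embryos were tested in the same fit. None of the 9 enzymes differed among A, B and C past the adjusted threshold, and none had an unadjusted p under 0.05 in limma's F test. Over all genes 0.0% passed adjusted and 2.77% unadjusted. Pgk1 came closest, with a p of 0.0667 (adjusted p 0.996), and its lowest levels were those of both pieces of embryo A.

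The enzymes varied less over the 6 libraries than most genes. Their median SD was 0.61 in log2(FPKM + 1), against 1.17 over all tested genes and 0.72 over the 771 genes at least as abundant as the lowest enzyme. Set among 15 reference genes of quantitative PCR outside the pathway, Ldha had the smallest SD of all 24 genes, 0.33, next to B2m at 0.34 and Ppia at 0.39. Gapdh, at 0.83, took place 14 and Pgk1, at 0.99, place 17. This ranking depends on the scale: with each library centred on its median gene, Eef1a1 (0.24) lay below Ldha (0.30), and Gapdh (0.91) above Pgk1 (0.89). After centring, Rplp0 (0.42), Ppia (0.43), B2m (0.44), Actg1 (0.45), Sdha (0.53) and Tfrc (0.57) also lay below every enzyme but Ldha. The next enzyme was Pgam1 (0.58), and Tpi1 and Gpi1 were at 0.80 each. On the scale as deposited, Actb was at 0.55, while Gusb, Tbp and Hprt had the widest spread, at 1.90, 2.18 and 2.21. The log2 level of Gapdh minus that of Pgk1 was 1.49, -0.09 and -0.02 in the libraries labelled anterior and 1.10, -1.17 and 0.16 in those labelled posterior, a range of 2.66. Against Actb, Gapdh lay lower by a log2 difference of -3.60 to -4.69 (SD 0.39).

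**Figure D5:**
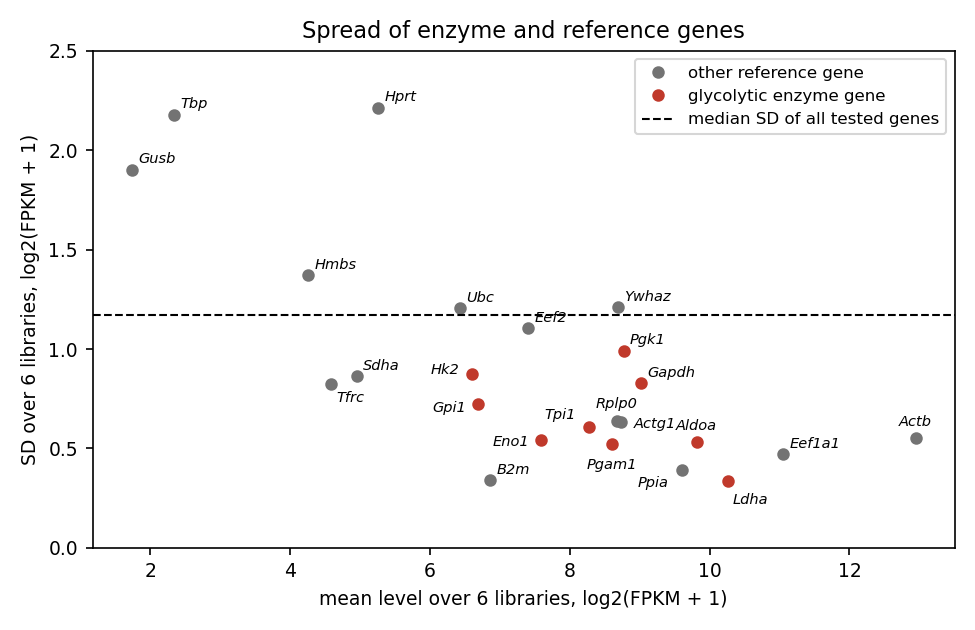
SD over 6 libraries against mean level over 6 libraries, both in log2(FPKM + 1), for the 9 enzyme genes (red) and 15 other genes used as references in quantitative PCR (grey), with the median SD of all tested genes as a dashed line at 1.17. All 9 enzymes lie below the line, Ldha lowest at 0.33 and Pgk1 highest at 0.99.

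How alike the enzymes were over the 6 libraries is given as a description, since the points share library and depth. The median Pearson r of the 36 pairs was 0.47. Gpi1 and Gapdh had the highest, 0.98, followed by Aldoa with Eno1 at 0.96 and Gpi1 with Eno1 at 0.94. The lowest values were those of Tpi1, at -0.06 with Gpi1, -0.02 with Eno1 and 0.02 with Ldha, although Tpi1 had r 0.73 with Hk2 and 0.56 with Pgam1. The mean profile of the 9, each centred on its own mean, was -0.61, 0.25 and 0.69 in the libraries labelled anterior and -0.06, -0.49 and 0.21 in those labelled posterior. Of 10905 other tested genes, those most like it over 6 libraries were Heatr6 (r 0.991), Rpl6 (0.991), Mxi1 (0.988), BC032203 (0.987), Gna13 (0.979), Top2a (0.977), Pabpn1 (0.972) and A630007B06Rik (0.971). Mxi1 is a gene of the hypoxia list, whose other genes ran from r -0.515 (Ero1l) to 0.712 (P4ha1). Adm, Ankrd37, Egln3 and Vegfa, described above, had r 0.005, -0.11, 0.17 and 0.20. Pkm, the pyruvate kinase gene, took place 31 with r 0.939.

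Markers of other cell types also differed between the libraries. The summed level of 12 visceral endoderm markers, led by Lrp2, Rbp4 and Dab2, was 701, 921 and 107 FPKM in the libraries labelled anterior and 138, 273 and 147 FPKM in those labelled posterior. In the library labelled anterior C 9 of the 12 were at 0, and Lrp2 alone was at 106.8 FPKM. For 9 parietal endoderm and XEN markers, led by Sparc, Col4a1 and Lamb1, the sums were 1125, 1687 and 297 against 348, 271 and 758 FPKM. For 9 trophoblast markers, led by Krt18, Krt8 and Gata3, they were 314, 443 and 300 against 270, 306 and 661 FPKM. Krt18 alone was at 142, 258 and 140 against 176, 192 and 429 FPKM. The mean of these 9 in log2(FPKM + 1) was 2.92, 2.71 and 2.69 against 2.91, 3.51 and 4.18. In embryo B the posterior piece was thus lower by the sum and higher by the mean. For 10 primitive streak markers, led by Wnt3, Mixl1 and Fgf8, they were 0.127, 7.38 and 44.8 against 298, 269 and 267 FPKM, and T made up 42.5 of the 44.8 FPKM. Hk2 and Tpi1, which had the largest gaps of embryo C, were highest in the library labelled anterior C, where both endoderm sums were lower than in the other libraries labelled anterior. In embryo B, where 8 enzymes were lower in the posterior piece, both endoderm sums were lower there too, as they were in embryo A, where 7 enzymes were higher. Their part in the enzyme levels was not tested. In pieces of tissue, fewer cells of a type and less RNA per cell cannot be told apart.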

How the data were processed

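RNA was measured in 6 libraries, 1 anterior and 1 posterior piece of each of 3 embryos. Per the labels' protocols, libraries were made by Smart-seq2 with 18 preamplification cycles, sequenced on a HiSeq 2500, mapped to mouse Ensembl 38.77 and counted with HTSeq-count. TopHat2 2.0.4, Cufflinks 2.0.2 and build mm10 are listed, without roles, in the submitters' processing notes. The authors deposited 1 table of 12826 genes in log2 units. The scale was read from the values as log2(FPKM + 1): undoing that transform gave numbers of at most 6 significant digits for 99.02% to 99.39% of entries above 3 in each library, where undoing a natural log did so for no more than 0.29%. Every gene exceeds 1 FPKM in some library (lowest maximum 1.003). No source used here states the normalization of the FPKM or the use of strand. Preamplification by PCR adds variation that is largest for low genes.

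The filter kept the 10914 genes averaging 1 FPKM or more over the libraries and left out 1912. Limma 3.58.1 in R 4.3.3 was fitted to log2(FPKM + 1), blocking on embryo and with eBayes trend, and tests were two-sided with Benjamini-Hochberg adjustment over all 10914 genes and a threshold of 0.05. It had 2 residual and 7.5 prior degrees of freedom, and differences on this scale understate those of low genes. A check on simulated data capped the spread of the noisier genes and used larger differences than those of the enzymes. That check says nothing of differences as small as theirs. The block rests on the dissection: both pieces come from 1 individual. Deviations of paired pieces from their domain means correlated at -0.07, 0.04 and -0.03 in A, B and C over genes. Promoters came from RefSeq, gene models from GENCODE M21, and copies were found with BLAST 2.17.0. The members and lists were chosen with earlier results of these data known. Named genes are all 9 enzymes, their isozymes, up to 4 genes with the smallest unadjusted p per metabolic list, the 8 genes most like the enzyme profile and the 3 most abundant genes per marker list. Named after their values were seen were T, Pou5f1, Pkm, Pfkl, Bpgm, Hif1a, the copy and overlapping genes of the enzymes, and Actb, B2m, Eef1a1, Ppia, Gusb, Tbp and Hprt of the reference list. Alternatives changed the block, scale, pseudocount, filter, trend and the embryos used.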

Additional observations from a re-analysis of the deposited data

How the results depend on the processing

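None of the 9 enzymes passed the adjusted threshold with limma under any of 12 alternatives, with adjusted p from 0.661 to 1.0. Without the replicate block that pairs both pieces of an embryo, the smallest adjusted p of an enzyme was 0.661, genes at an unadjusted p under 0.05 numbered 912 higher in the posterior and 119 in the anterior domain (790 and 86 with it), and no call changed. Directions of the enzymes were less stable, and the cause was not tested. Ldha turned to -0.41 with libraries centred on the median gene, -0.070 after quantile normalization, -0.22 with libraries scaled to the same summed FPKM (added after seeing the data), -0.15 without anterior A and -0.23 without embryo A. Without embryo B, Gpi1 turned to 0.38, Aldoa to 0.17, Gapdh to 0.24, Pgk1 to 0.34 and Eno1 to 0.31. Without embryo C, Hk2 turned to 0.72, Aldoa to 0.0061 and Pgk1 to 0.10. Over the fits that left out an embryo or anterior A, Hk2 ran from -0.70 to 0.72, Gpi1 from -0.62 to 0.38, Aldoa from -0.63 to 0.17, Tpi1 from -1.03 to -0.25, Gapdh from -1.01 to 0.24, Pgk1 from -0.86 to 0.34, Pgam1 from -0.62 to -0.14, Eno1 from -0.47 to 0.31, Ldha from -0.23 to 0.44 and the median of the 9 from -0.62 to 0.24. The split of all genes at an unadjusted p under 0.05, higher in posterior to higher in anterior, was 429 to 297 with centring, 513 to 315 after quantile normalization and 649 to 159 after summed-FPKM scaling, and the median of all genes was -0.06, -0.06 and 0.25. Genes differing among embryos past the adjusted threshold numbered 0, and 3 each with centring, quantile normalization and no filter on low values, and 0 to 4 when 1 embryo was left out. None of them was an enzyme described here. The Pgam1 isozyme ratio was -0.81, and -1.57 with a pseudocount of 0.1. Differences within the intervals given are not excluded by these data, and absolute depth is unknown.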

Other observations

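Bpgm, which makes 2,3-bisphosphoglycerate from a glycolytic intermediate and was picked out here after its values were seen, ran opposite to the enzymes. It was at 5.52, 1.20 and 0.33 in log2(FPKM + 1) in the libraries labelled anterior (embryos A, B, C) and at 4.48, 4.42 and 1.11 in those labelled posterior. Its Pearson r with the mean enzyme profile was -0.929 over 6 libraries, place 10865 of 10905 genes. Hif1a, picked out in the same way, was at 4.65, 4.36 and 3.61 against 3.74, 4.57 and 4.07, with r -0.776, and differed by -0.08 ± 0.83 between domains. Both values of r are descriptions over libraries that differ in depth. Of the genes of gluconeogenesis, Pcx, which carboxylates pyruvate, differed by -1.78 ± 1.06 and Pck2 by 0.74 ± 1.05, neither past the adjusted threshold with limma.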
